A study of Rattus norvegicus with 12 samples.

Results

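A set of 8 genes that mark neurons were followed in the rat colon carcinoma line CC531: Mapt, Map2, Gap43, Snap25, Syp, Syn1, Eno2 and Chga. They were taken up as neuronal genes often repressed outside neurons, and the choice was made with the butyrate results of these same arrays known. They were thus chosen by the intensities of the butyrate arrays. Those values are given as a description with no p-value, and p-values for these genes are given only for aspirin. Counts of the genes past a threshold with butyrate are printed once, for completeness, and support nothing. Every probe set whose annotation names 1 of these genes alone was used, which gave 15 probe sets for 6 of the 8 genes, out of 4736 genes named on the array. Eno2 and Chga had no such probe set. A filter on low intensities kept 9 of the 15, at least 1 for each of the 6 genes, out of 6118 probe sets kept in all.

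RNA of CC531 cells, a rat colon carcinoma line, was hybridised to 12 expression arrays. Cells were treated, with 4.5 mM butyrate or with 3 mM aspirin, each for 2, 6, 12, 16 and 24 h with 1 array per time, and untreated cells were measured at 2 and 24 h. All 12 samples carry the same source label, so the untreated cells differ from the others only by the missing agent as far as the labels say, and no solvent control is named. Nothing in the labels says that arrays come from separate cultures, so a p-value here weighs a difference against array-to-array spread alone, which may be technical. For a treatment set against untreated cells, change from hour to hour is part of that spread. Each treatment is compared with the same untreated arrays.

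Mapt encodes tau, which binds and stabilises microtubules in axons, and Map2 encodes its relative of dendrites. Snap25 is a SNARE protein that drives fusion of vesicles with the plasma membrane, Syp (synaptophysin) spans the membrane of synaptic vesicles, and Syn1 (synapsin I) tethers these vesicles to each other and to actin. Gap43 is a membrane protein of growth cones, Eno2 the neuronal form of the glycolytic enzyme enolase, and Chga (chromogranin A) a protein of dense core secretory granules. Outside neurons many such genes are held silent by the repressor REST, which binds a DNA element called RE1 and recruits histone deacetylases. Butyrate, a short-chain fatty acid made by gut bacteria, inhibits these enzymes, and aspirin inhibits the cyclooxygenases.

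Intensities are the deposited linear values, and 21.5 to 25.5% of them per array were below 0. Values under 90.91 were raised to this floor (log2 6.51) before logarithms were taken, and 13.4 to 21.1% of the tested values per array lay at it. A fold is written "at least" where both untreated arrays were at the floor and the treated array was above it. The untreated arrays differed by more than 2-fold at 1011 of the 6118 tested probe sets (16.5%). Intensities of different probe sets are not compared, because probes differ in how they bind. The 5 epithelial markers on the array (of 8 listed) lay above the floor on all 12 arrays, with summed intensities of 61224 to 72363 in untreated, 56430 to 66527 in butyrate and 60409 to 70561 in aspirin arrays.

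The regions around the annotated transcription starts are printed for 3 of the members. RefSeq windows of 300 bases on GRCr8 (250 before to 50 after the start) were at hand for 3 of the 6 genes with probe sets, and capitals mark motif matches on either strand. They are given 5′ to 3′ on the gene's strand. The motifs searched were the GC box GGGCGG, the cAMP response element TGACGTCA, and the left and right parts of RE1, CAGCACC and GGACAG, and no match overlapped another.
Map2, chr9:75346440-75346739, plus strand: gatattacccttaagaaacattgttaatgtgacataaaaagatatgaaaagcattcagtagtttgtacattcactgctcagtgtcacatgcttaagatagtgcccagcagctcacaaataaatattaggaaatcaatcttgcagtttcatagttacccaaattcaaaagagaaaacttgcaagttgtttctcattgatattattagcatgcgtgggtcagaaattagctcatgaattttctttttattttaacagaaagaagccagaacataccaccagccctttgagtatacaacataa
Syp, chrX:17536400-17536699, minus strand: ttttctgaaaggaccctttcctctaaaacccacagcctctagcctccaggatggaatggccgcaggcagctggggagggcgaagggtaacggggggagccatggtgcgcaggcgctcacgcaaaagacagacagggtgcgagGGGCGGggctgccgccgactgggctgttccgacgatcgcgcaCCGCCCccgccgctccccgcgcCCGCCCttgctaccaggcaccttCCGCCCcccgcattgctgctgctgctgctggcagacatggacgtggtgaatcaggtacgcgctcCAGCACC
Syn1, chrX:3725495-3725794, plus strand: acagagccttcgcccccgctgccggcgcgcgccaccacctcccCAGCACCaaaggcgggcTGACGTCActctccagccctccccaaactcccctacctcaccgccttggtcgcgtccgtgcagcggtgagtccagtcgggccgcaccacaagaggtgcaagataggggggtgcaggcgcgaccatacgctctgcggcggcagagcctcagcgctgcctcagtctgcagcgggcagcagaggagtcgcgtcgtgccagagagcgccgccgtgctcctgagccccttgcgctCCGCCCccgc
The Syp window held 67.0% GC and 25 CpG dinucleotides, and the Syn1 window 71.0% GC and 31 CpG. The Map2 window held 33.3% GC and 1 CpG, against medians of 51.7% and 7 over 33469 windows, and its start lies 173652 bases inside the annotated gene. Syp had 4 GC boxes and 1 left RE1 part, Syn1 had 1 GC box, 1 cAMP response element and 1 left RE1 part, and the Map2 window held none of the 4 motifs. The GC box occurs in 33.1% of all windows, the cAMP response element in 1.83%, the left RE1 part in 6.78% and the right one in 21.7%. A match is a description of letters, not a bound site.

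Tau RNA was at the floor in untreated cells, above it in butyrate-treated cells from 6 h on and far above it from 12 h on. Mapt lies on chromosome 10 (89638618 to 89736108 in GRCr8) and had 3 probe sets, all tested. Probe set rc_AA957930_s_at read 49.8 and -24.1 in untreated cells at 2 and 24 h. With butyrate it read 34.8 at 2 h, 706.6 at 6 h, 1347 at 12 h, 1923.4 at 16 h and 2157.1 at 24 h. With aspirin it read 125.8, -78.4, 231.8, 117.4 and 164.2 at the same hours. The butyrate array of 2 h lay with the untreated ones, while the 4 later butyrate arrays lay above all untreated and aspirin arrays.

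The other Mapt probe sets gave the same order of arrays for butyrate. Probe set X79321_at read -263.2 and -283.2 in untreated cells and -224.1, 579.7, 892.4, 1473.6 and 1722.2 with butyrate from 2 to 24 h. Its aspirin values were -137.4, -261.9, -162.3, -14.9 and -37.7, all under the floor. Probe set rc_AI227608_s_at read -144.4 and -68.8 in untreated cells, -69.6, 175.2, 570.7, 792.4 and 1019.3 with butyrate, and -106.7, -102.3, -80.7, -45.8 and -40 with aspirin. On both, the untreated, aspirin and 2 h butyrate arrays were at the floor, and each later butyrate array was higher than the one before.

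**Figure D1:**
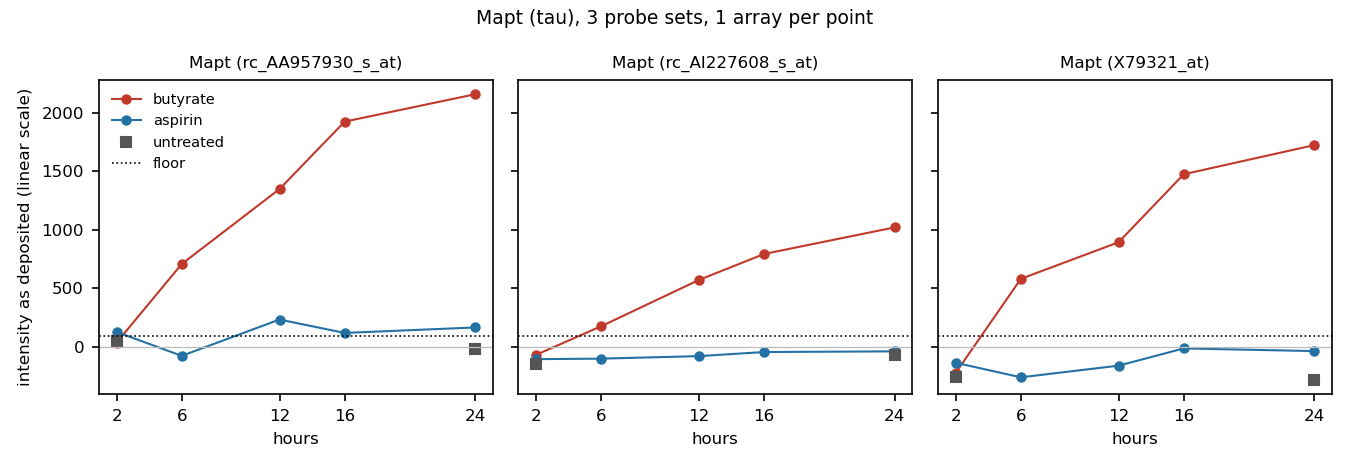
Deposited intensity (linear scale) of the 3 Mapt probe sets against hours, 1 array per point, with butyrate and aspirin arrays joined by lines, untreated arrays as squares and the floor of 90.91 dotted. Butyrate arrays reach 2157.1, 1019.3 and 1722.2 at 24 h, while no aspirin array exceeds 231.8.

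Against the mean of the untreated arrays, rc_AA957930_s_at was at least 7.77-fold higher at 6 h of butyrate, at least 14.8-fold at 12 h, at least 21.2-fold at 16 h and at least 23.7-fold at 24 h. Each of these folds comes from a single treated array with no replicate check. X79321_at was at least 6.38-fold, 9.82-fold, 16.2-fold and 18.9-fold higher at these hours, and rc_AI227608_s_at at least 1.93-fold, 6.28-fold, 8.72-fold and 11.2-fold. The 3 probe sets thus differed in size but not in order over the hours. As means over the 5 times, the log2 change from untreated to butyrate was 3.16 ± 0.91 (SE from limma, 5 against 2 arrays) for rc_AA957930_s_at, 2.85 ± 0.80 for X79321_at and 2.04 ± 0.71 for rc_AI227608_s_at. These means include the 2 h array at the floor, and they depend on the floor. With a higher floor of 182.2 the first was 2.36 and with a lower one of 45.5 it was 3.90.

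Map2 (chromosome 9, 75173038 to 75431606 in GRCr8) was also higher with butyrate from 6 h on, but the reading rests on 1 of its 5 probe sets. U30938_at read 181.1 at 2 h and 91.6 at 24 h in untreated cells. With butyrate it read 123.9, 429.9, 1035.6, 867.6 and 1032.9 from 2 to 24 h, and with aspirin 79.5, 114.9, 151.3, 120.4 and 225. The 4 later butyrate arrays lay above all other arrays, the 2 h one lay between the untreated ones, and the values from 12 to 24 h showed no steady order. Against the mean of the untreated arrays the folds were 3.34 at 6 h, 8.04 at 12 h, 6.74 at 16 h and 8.02 at 24 h. Since the untreated arrays themselves differed, the 24 h butyrate value was 11.3-fold the untreated value of the same hour.

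The mean log2 change of U30938_at with butyrate was 2.09 ± 0.69 (SE). It was 1.60 without the untreated 24 h array and 2.58 without the untreated 2 h array. The other 4 Map2 probe sets, rc_AI228850_s_at, S74265_s_at, X17682_s_at and X53455cds_s_at, were at the floor on all 12 arrays and were not tested. Their highest values were -26.3, 69.9, 16.6 and -52.8. They therefore measured no Map2 change in either direction.

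Among the proteins of vesicle fusion, the probe sets did not move together. Syp (chromosome X, 17521348 to 17536449 in GRCr8) had 1 probe set, X06655_at, which read 21.4 and -99.6 in untreated cells. With butyrate it read -17.9, 50, 128.3, 141.7 and 270.6, and with aspirin -12.8, -68.7, -37, -42.2 and -39.3. Only the butyrate arrays of 12, 16 and 24 h lay above the floor, at least 1.41-fold, 1.56-fold and 2.98-fold over untreated cells. The mean log2 change, 0.54 ± 0.32, depended on the floor and was 0.11 with the higher and 1.17 with the lower one.

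Syn1 (chromosome X, 3725745 to 3780940 in GRCr8) lay above the floor on every array. M27812_at read 349.8 and 327.5 in untreated cells, 269.9, 558.7, 534.2, 456.9 and 521.8 with butyrate, and 229.6, 184.8, 176.7, 408.6 and 302.8 with aspirin. The butyrate arrays from 6 h on lay above both untreated arrays and the 2 h one below them. The mean log2 change of 0.42 ± 0.39 was about the size of its error.

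Snap25 (chromosome 3, 144494579 to 144576449 in GRCr8) had 4 probe sets, of which 2 were tested, and these did not go the same way. AB003991_at read 787.7 and 680.9 in untreated cells, 241, 458.3, 948, 1013.5 and 533.5 with butyrate, and 288.4, 325, 267.6, 729.9 and 696.9 with aspirin. The butyrate and untreated arrays overlapped, with 2 butyrate arrays above and 3 below both untreated ones. AB003991_g_at, named for the same sequence entry, read 102.6 and 174.9 in untreated cells, 138.9, 205.9, 147.9, 174.6 and 202 with butyrate, and 120.3, 123.5, 76.4, 41.4 and 171.7 with aspirin, again with overlap. Their mean log2 changes with butyrate were -0.38 ± 0.55 and 0.36 ± 0.30, and the second was -0.03 without the untreated 2 h array and 0.74 without the untreated 24 h array. AB003992_s_at and U56261_s_at were under the floor on all 12 arrays, with highest values of 25.9 and 25.3.

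Gap43 (chromosome 11, 71882131 to 71975799 in GRCr8) was dim throughout. L21192_at read 130.9 and 109 in untreated cells, 64.6, 111.5, 53.1, 68.7 and 90.9 with butyrate, and 94.7, -91.4, 91.1, -119.3 and 39 with aspirin. It was above the floor in both untreated arrays, at 6 h of butyrate and, by a small margin, at 2 and 12 h of aspirin. The mean log2 change with butyrate was -0.34 ± 0.15, a size set by the floor: it was -0.67 with the lower floor and 0 with the higher one.

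**Figure D2:**
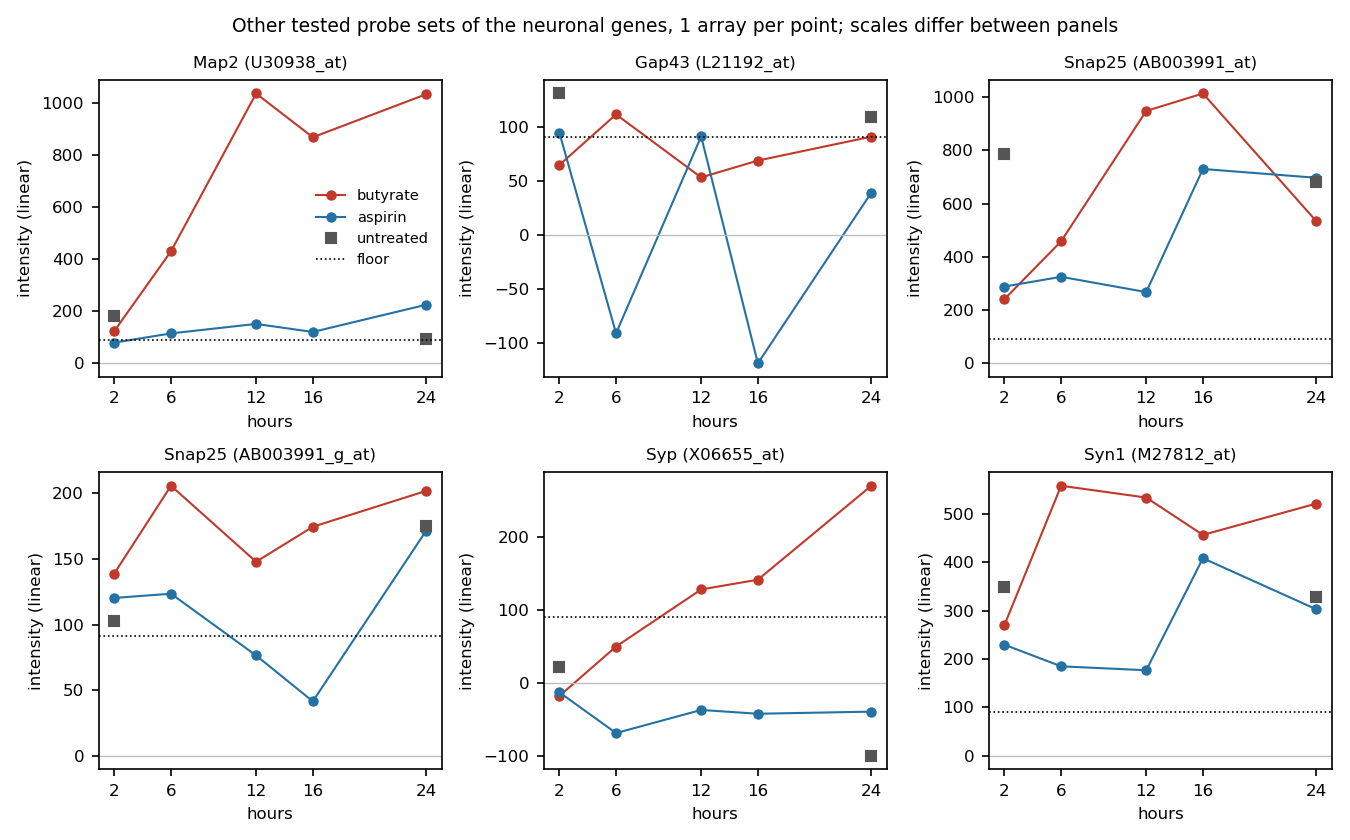
Deposited intensity (linear scale) of the other 6 tested probe sets against hours, 1 array per point, drawn as for tau, with a separate scale in each panel. Map2 reaches 1035.6 at 12 h of butyrate and Syp 270.6 at 24 h, while the Snap25 and Gap43 panels show overlapping treatments.

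Counted over the 9 tested probe sets, 2 passed an adjusted p of 0.05 upwards with butyrate against untreated and 0 downwards, where 7.78% of all 6118 probe sets passed upwards and 3.92% downwards. Against aspirin at matched hours 5 read higher with butyrate past the threshold, where 15.6% of all did. Over the hours of butyrate 5 had a rising slope past it, where 4.79% of all did. On the last hour alone, 5 probe sets of 3 genes were at least 2-fold over untreated cells of 24 h with butyrate, where 18.5% of all were. These counts use the arrays that chose the genes, so they are fixed in part by that choice and nothing is read from them. The median log2 change of the 9 was 0.54 with butyrate, beside 0.00 over all tested probe sets, and is likewise only a description. It is the value of Syp, which was kept through its butyrate values and whose size depends on the floor.

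Side by side at matched hours, the mean log2 difference of butyrate over aspirin was 2.56 ± 0.67, 2.85 ± 0.64 and 2.04 ± 0.56 for Mapt (rc_AA957930_s_at, X79321_at and rc_AI227608_s_at) and 2.04 ± 0.38 for Map2 U30938_at. It was 0.87 ± 0.30 for Syn1, 0.54 ± 0.24 for Syp, 0.43 ± 0.35 and 0.56 ± 0.15 for Snap25 (AB003991_at and AB003991_g_at) and 0.05 ± 0.08 for Gap43. The slope per doubling of the hours of butyrate, in log2 units, was 1.30 ± 0.17, 1.19 ± 0.11 and 1.05 ± 0.09 for Mapt, 0.90 ± 0.13 for Map2 and 0.38 ± 0.10 for Syp. For Snap25 it was 0.47 ± 0.19 and 0.10 ± 0.12, for Syn1 0.23 ± 0.15 and for Gap43 -0.02 ± 0.04. For Mapt X79321_at and rc_AI227608_s_at and for Syp, whose aspirin and 2 h butyrate arrays were at the floor, the floor sets these sizes in part. The slope fit pools both treatments and leaves out the untreated arrays, so change over the hours without an agent is not removed. Aspirin arrays at the floor add no spread to this fit, which lowers the slope errors of these probe sets.

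Aspirin, which the choice of genes did not use, gave no call among the 6 probe sets it could measure. Mapt X79321_at and rc_AI227608_s_at and Syp were at the floor on all untreated and aspirin arrays, were tested only through their butyrate values, and could not be called. With limma, 0 of the 6 passed an adjusted p of 0.05 against untreated in either direction, where 0.147% of all 6118 passed, 5 upwards and 4 downwards. At an unadjusted p under 0.05 there was 1 member, Gap43, which was lower, where 656 probe sets of all were past that p. Its log2 change was -0.38 ± 0.15 (95% interval -0.70 to -0.06; adjusted p = 0.404 by limma). Its size is set by the floor, and it was 0 with the higher and -0.98 with the lower one. Without the untreated 24 h array the change was -0.51 with an adjusted p of 0.0411, but only 1 untreated array then remains and is assumed to vary like the other groups. The same holds wherever an untreated array is left out.

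For tau, rc_AA957930_s_at had 4 of 5 aspirin arrays above the floor and both untreated arrays at it, with a log2 change of 0.61 ± 0.91 (interval -1.35 to 2.56; limma adjusted p = 0.874). This value depended on the floor and was 0.07 with the higher and 1.34 with the lower one. Its SE comes from all 3 groups, whose SDs were 0.514 for aspirin and 1.88 for butyrate. Map2 U30938_at changed by 0.05 ± 0.69 (interval -1.43 to 1.54; adjusted p = 1), Snap25 AB003991_at by -0.81 ± 0.55 (-2.0 to 0.38; 0.64) and AB003991_g_at by -0.21 ± 0.30 (-0.85 to 0.43; 0.87). Syn1 changed by -0.45 ± 0.39 (-1.29 to 0.39; adjusted p = 0.741). These intervals leave room for changes of more than 2-fold in at least 1 direction for Mapt, Map2, Snap25 AB003991_at and Syn1.

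Over the hours of aspirin, 0 of these 6 slopes passed the threshold with limma, where 1.65% of all did, 81 rising and 20 falling. The other 3 are 0 because all their aspirin arrays were at the floor. At an unadjusted p under 0.05 there was 1, Map2, which rose, where 721 of all 6118 probe sets rose and 483 fell. Its slope was 0.30 ± 0.13 per doubling of the hours (limma adjusted p = 0.252). Its 24 h aspirin array was 2.46-fold the untreated array of that hour, which lay just above the floor, and 1.75-fold the mean of both untreated arrays. It was the 1 member at least 2-fold over untreated cells of 24 h, where 8.24% of all tested probe sets were. Snap25 AB003991_at had a slope of 0.36 ± 0.19 (adjusted p = 0.352) and rc_AA957930_s_at of Mapt 0.14 ± 0.17 (adjusted p = 0.725).

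**Figure D3:**
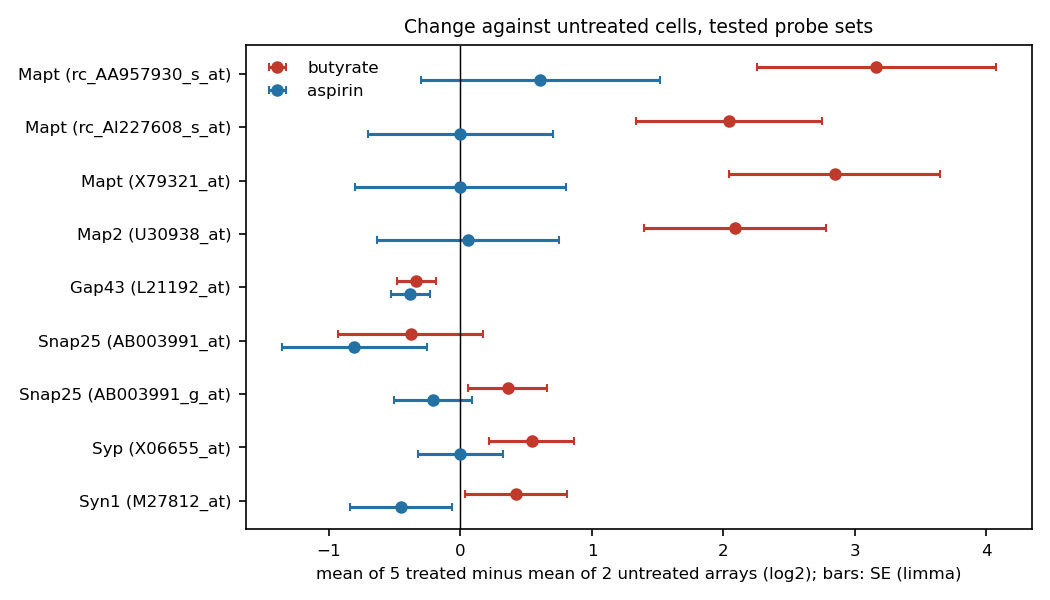
Mean log2 change of the 5 butyrate or 5 aspirin arrays against the 2 untreated arrays for the 9 tested probe sets, with bars of 1 SE from limma. Butyrate values reach 3.16 for tau, while aspirin values lie between -0.81 and 0.61.

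Over all 12 arrays the log2 values of the 3 Mapt probe sets correlated with Pearson's r of 0.951 to 0.976, and rc_AA957930_s_at with Map2 U30938_at at 0.958. With Syp r was 0.791, with Syn1 0.691, with the Snap25 probe sets 0.409 and 0.57, and with Gap43 -0.256. The 2 Snap25 probe sets correlated at 0.26. These are descriptions over arrays that share treatments and hours, with values at the floor in common.

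Outside the neuronal genes, the patterns most like that of Mapt rc_AA957930_s_at over the 12 arrays were those of Ldhd, a mitochondrial D-lactate dehydrogenase (r = 0.988), Mpst, a sulfurtransferase (0.979), and Arg2, the mitochondrial arginase (0.977). Most like Map2 U30938_at were Mmp9, a gelatin-degrading matrix protease (0.973), Aplp2, a relative of the amyloid precursor protein (0.973), and again Mpst (0.968). Mpst had a log2 change of 2.72 with butyrate, Arg2 of 2.36 and Ldhd of 1.75. For Snap25 AB003991_at the highest values were lower, 0.873 for Myh13, 0.867 for Or9s23 and 0.866 for Ppp2r2a.

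To see how other neuronal genes behaved, 161 were listed, with earlier results of these data known, so that their counts are no independent evidence. Of these, 131 were on the array and 81 were tested, each by its brightest probe set. With butyrate 5 rose and 0 fell (limma, adjusted p under 0.05), which is 6.17% and 0% beside 7.78% and 3.92% of all probe sets. The filter used the mean over all arrays. Of the 5, Syngr1, Dnm1 and Nptx1, described below, were at or near the floor on all untreated and aspirin arrays. They were kept through their butyrate values and could only rise. The median log2 change was 0.14, beside 0.00 over all. At an unadjusted p under 0.05 there were 12 upwards and 7 downwards, beside 1004 and 759 of all 6118 probe sets. The count upwards by adjusted p was 10 without the 2 h butyrate array. It was 3 without the untreated 24 h array, without any 1 of the other butyrate arrays, or without the 6 or 12 h aspirin array. The count downwards was 4 without the untreated 2 h array and 3 without the untreated 24 h one. With each array centred on its median it was 5. That centring moves the median change of all probe sets to -0.19 and the split of all calls from 476 higher and 240 lower to 370 and 437, and quantile normalization gave 417 and 291.

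Of the 5 genes, 4 belong to the list of synaptic vesicles and exocytosis. There 4 of 23 tested genes rose (17.4%) and 0 fell, beside 7.78% and 3.92% of all probe sets, and the median was 0.24. Of the 4, Syngr1 and Dnm1 were kept through their butyrate values and could only rise. Dnm1, the neuronal dynamin that cuts vesicles from the membrane, read -289.7 and -207.2 in untreated cells, 74.3, 395, 1360.5, 1224.5 and 929.5 with butyrate, and at most 103.2 with aspirin. Its log2 change of 2.63 ± 0.77 (adjusted p = 0.0414) lost its call without any 1 of 11 of the 12 arrays, with adjusted p up to 0.203, and with the higher floor (0.174), no filter (0.126), no variance trend (0.0527) or time as a factor (0.13). Syngr1, a vesicle membrane protein of the synaptogyrin family, read 34.3 and -27.5 in untreated cells, 222.8, 283.3, 435.5, 233.1 and 212.9 with butyrate, and under the floor on every aspirin array. Its change of 1.56 ± 0.26 (adjusted p = 0.00325) kept its call without any 1 array, but not with the higher floor (0.214), and its other 2 probe sets were not tested. The untreated and aspirin arrays of Syngr1, all at the floor, add no spread behind this p-value, and those of Dnm1 add little behind its own.

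Rab3a, a small GTPase of secretory vesicles, rose by 1.35 ± 0.28 (adjusted p = 0.0102), with 0.0636 without the untreated 24 h array, 0.189 with the higher floor, 0.0529 with the lower one and 0.122 with the inverse hyperbolic sine. Stx1a, the plasma membrane partner of Snap25 in vesicle fusion, rose by 1.20 ± 0.34 (adjusted p = 0.0379), and lost its call without any 1 of 8 arrays, with adjusted p up to 0.23, and with the higher floor (0.0739), no filter (0.0661) or time as a factor (0.127). Its values were 635.3 and 410.1 in untreated cells, 743.7, 1002.1, 1236.4, 1375.7 and 1751.6 with butyrate, and 393.6 to 662.6 with aspirin. All butyrate arrays lay above both untreated ones. Its other probe set gave 1.84 with an adjusted p of 0.07. Vamp2, the vesicle partner in the same complex, had a log2 change of 0.40 (adjusted p = 0.391), and its other probe set 0.38.

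The fifth gene, Nptx1, encodes a secreted pentraxin of synapses and is 1 of 12 tested genes of neurite growth and adhesion. Probe set rc_AI072943_at read 9.2 and 34.5 in untreated cells, 141.3, 382.1, 581, 573.4 and 620.2 with butyrate, and up to 104.3 with aspirin. Its change was 2.16 ± 0.46 (adjusted p = 0.0102), with adjusted p up to 0.0785 without either of the untreated arrays, 0.125 with the higher floor and 0.0504 with time as a factor. The untreated and aspirin arrays of this probe set, at or near the floor, add little spread behind these p-values. A second probe set gave 0.36 (adjusted p = 0.241) and another was not tested. No gene passed among 7 of the cytoskeleton and axon, 15 of dense core vesicles and neuropeptides, 15 calcium sensors, kinases and postsynaptic proteins, 4 of transmitter synthesis and 5 RNA-binding and other neuronal proteins. At an unadjusted p under 0.05 these 5 lists held 1 and 0, 3 and 0, 1 and 3, 0 and 1, and 0 and 1 genes upwards and downwards by limma. Of all 6118 probe sets, 1004 and 759 were past that p upwards and downwards.

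**Figure D4:**
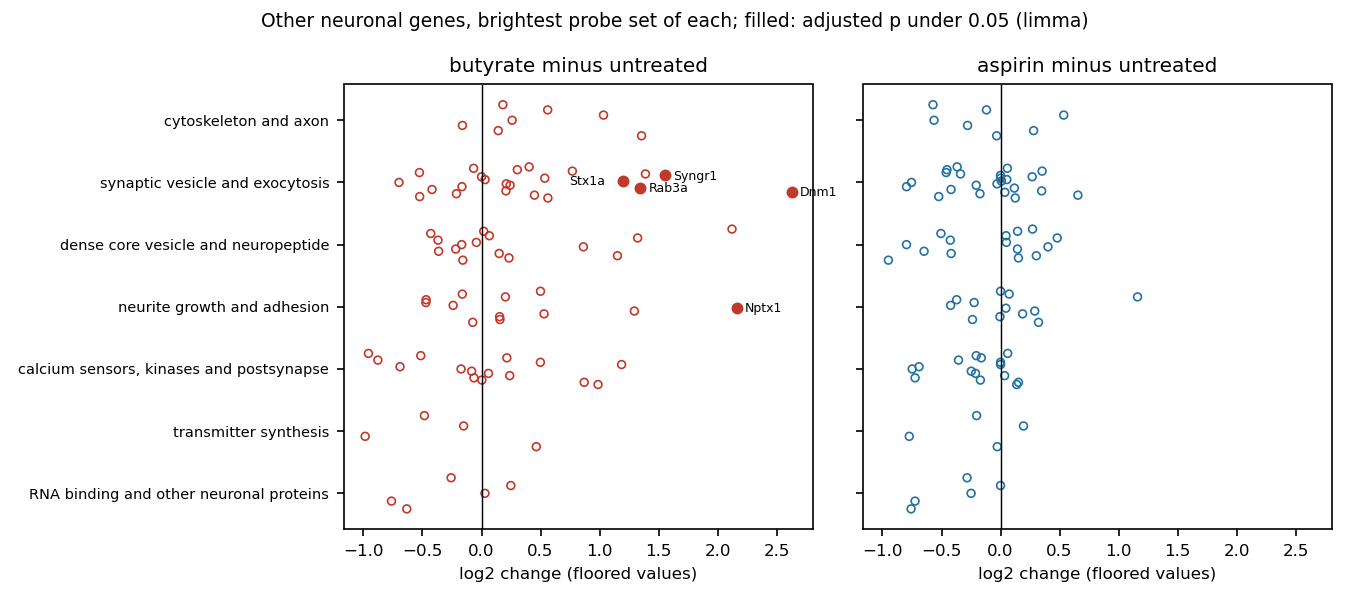
Log2 change (floored values) of the 81 tested genes of the other neuronal lists, 1 row per list and 1 point per gene, for butyrate on the left and aspirin on the right, with filled points for an adjusted p under 0.05. The 5 filled points, 4 of them among the 23 tested synaptic vesicle genes, are in the butyrate panel, and the aspirin panel has 0. Of all 6118 probe sets, 7.78% passed upwards with butyrate.

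With aspirin 0 of the 81 genes passed against untreated in either direction (limma), and the median log2 change was -0.03. An unadjusted p under 0.05 was reached by 1 upwards and 6 downwards, beside 238 and 418 of all 6118 probe sets. Syngr1, kept only through its butyrate values, was at the floor on all these arrays and could not be called. Dnm1 and Nptx1 were at or near the floor there too. Without the untreated 24 h array 3 passed downwards, and without the untreated 2 h array 1. Butyrate lay higher than aspirin at matched hours for 14 genes (limma), which is 17.3% beside 15.6% of all probe sets, with medians of 0.25 and 0.10. It lay lower for 1 gene (1.23%), beside 9.61% of all probe sets. Of the 14, 8 were among the 23 vesicle genes (34.8%, beside 15.6% of all probe sets). Syngr1, Dnm1 and Nptx1 are among the 14 and were kept through their butyrate values. The 14 became 3 to 6 without any 1 array of 6 h or later, of either treatment, and the 1 became 0 without several of them. Stx1a, with a difference of 1.19 (adjusted p = 0.00851), Syngr1 with 1.56 (0.00708) and Crmp1, an axon guidance mediator, with 1.39 (0.00756) kept their calls without any 1 array. The aspirin arrays of Syngr1, all at the floor, add no spread behind its p-value. Crmp1, and Vgf and Cpe below, were picked after their values were seen.

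Over the hours of butyrate 7 neuronal genes rose and 0 fell (limma), 8.64% and 0% beside 4.79% and 4.2% of all probe sets. Dnm1 and Nptx1, kept through their butyrate values, are among the 7, and their aspirin arrays add little spread. The steepest was Vgf, a secreted neuropeptide precursor, with 1.28 ± 0.11 per doubling of the hours (adjusted p = 0.00141). It read -109.8 and 290.7 in untreated cells, 28.6, 511.8, 1202.3, 1548.6 and 2042 with butyrate, and 19.3, 134, 187.4, 330.1 and 385.1 with aspirin. It was also the 1 gene of these lists (1.23%, beside 1.32% of all probe sets) that rose over the hours of aspirin, with 0.59 (adjusted p = 0.0441). That call was lost without any 1 of 7 arrays (adjusted p up to 0.133). The slope fit leaves out the untreated arrays, so change over the hours without an agent is not removed. Vgf itself was higher in untreated cells at 24 h than at 2 h. Without the 2 h butyrate array 2 of the 7 slopes passed, those of Cpe, the carboxypeptidase that trims peptide hormones (0.87, adjusted p = 0.0379; 0.64 with all arrays), and of Thy1. Vgf then had 1.01 (0.0615). Without the 12 h butyrate array there were 11.

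Of 16 tested kinases and phosphatases that act on tau, 1 rose and 1 fell with butyrate, 6.25% each way beside 7.78% and 3.92% of all probe sets. Cdk5, a kinase of tau active in neurons, read 259 and 790.7 in untreated cells and 943 to 1561.2 with butyrate, a log2 change of 1.52 ± 0.45 (limma adjusted p = 0.0427). Without the untreated 2 h array the change was 0.71 (adjusted p = 0.426), and the call was lost without any 1 of 8 arrays, and with the higher floor (0.114), no filter (0.105), median centring (0.0572) or quantile normalization (0.0598). Without the untreated 24 h array the change was 2.32. Fyn, a tyrosine kinase of tau, fell by 1.42 ± 0.40 (adjusted p = 0.0372). Its change was -0.83 (adjusted p = 0.299) without the untreated 2 h array and -2.01 without the untreated 24 h one, and the call was lost without any 1 of 6 arrays, and with the higher floor (0.188), no filter (0.0858) or time as a factor (0.0847). Both genes are also expressed outside neurons.

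Of the REST complex, 5 of 14 listed genes were on the array and 0 passed in either direction with butyrate (limma), with a median log2 change of -0.43. At an unadjusted p under 0.05 there were 0 upwards and 1 downwards, beside 1004 and 759 of all 6118 probe sets. Rest itself was above the floor only at 12 h of butyrate, where it read 155.8, and its level elsewhere could not be measured. Hdac2, a histone deacetylase, had a log2 change of -0.40 ± 0.26 (adjusted p = 0.326). No value bears here on REST protein or on its binding.

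A further list held relatives, expressed outside neurons, of the members or of the partners of Snap25 in vesicle fusion. Of its 10 tested genes 2 rose (20%) and 1 fell (10%) with butyrate, beside 7.78% and 3.92% of all probe sets. Snap23, the widely expressed form of Snap25, rose by 1.01 ± 0.25 (limma adjusted p = 0.0214), from 542.3 and 514 in untreated cells to between 948.1 and 1209.3. Its call was lost without either of the untreated arrays (adjusted p up to 0.0593), with median centring (0.0595) and with time as a factor (0.11), and its other probe set gave 0.62 (0.152). Vamp3, the widely expressed relative of Vamp2, rose by 0.85 ± 0.25 (adjusted p = 0.0399), a call lost without any 1 of 8 arrays (up to 0.181) and under 5 of the other settings (up to 0.0899). Stx3, a syntaxin of epithelial cells picked after its values were seen, fell by 0.82 (adjusted p = 0.0305), and had a log2 change of -0.36 (0.209) without the untreated 2 h array. With aspirin its change was -0.84 (adjusted p = 0.256), and -1.31 (0.00104) without the untreated 24 h array. Eno1, the widely expressed enolase, had a log2 change of -0.36 ± 0.11 (adjusted p = 0.0507).

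Markers of other cell types were read as lists beside the neuronal genes. Of 6 neuroendocrine markers on the array, Chgb, Scg3 and Ddc were at the floor on all 12 arrays, and the summed intensity of the list was 312 to 400.1 in untreated, 209.6 to 375.8 in butyrate and 195.5 to 445.1 in aspirin arrays. Of 6 glial markers 1 was above the floor on all arrays and Mbp on none, with sums of 1572 to 1970.6, 868.1 to 1688.5 and 820 to 1589.9. Within that list Cnp rose with butyrate by 2.47 ± 0.43 (limma adjusted p = 0.00406; up to 0.0478 without any 1 array, and 0.0511 with the higher floor), and Mog fell with butyrate (-1.38, adjusted p = 0.000607) and with aspirin (-1.41, adjusted p = 0.00663, lost with median centring, quantile normalization, the lower floor or time as a factor). Mog was at the floor on all butyrate arrays but the 2 h one and on all aspirin arrays but the 6 h one. The floor thus sets the size of its changes, and arrays at it add no spread behind its p-values. With butyrate the change ran from -2.18 to -0.451 over the other settings. Of 6 fibroblast markers 5 were above the floor on all arrays, with sums of 8543.9 to 9046.4, 5823.6 to 7967.3 and 6018.9 to 8853.8, so that butyrate arrays lay below both untreated ones. These sums use the brightest probe set of each gene, and Acta2 and Vim make up most of them. A dimmer probe set of the collagen gene Col1a1, M27207mRNA_s_at, picked after its values were seen, read 159 and 113.8 in untreated cells and 235.3, 515.1, 797.3, 870.8 and 1615.4 with butyrate. It rose by 2.32 ± 0.54 (adjusted p = 0.0165; up to 0.128 without either of the untreated arrays, and 0.102 with the higher floor), while the brightest Col1a1 probe set gave 0.07 (0.921). Of the 5 epithelial markers, Krt19 rose with butyrate by 0.87 ± 0.20 (adjusted p = 0.0166; 0.187 without the untreated 2 h array). Krt18, named after its value was seen, fell by 0.48 (adjusted p = 0.0258; 0.0867 without the untreated 24 h array). None of 4 blood or 3 endothelial markers was above the floor on every array, with Cd8a and Vwf at it on all. In a bulk sample, fewer cells of a type and less RNA per cell cannot be told apart, and the part of other cells in these values was not tested.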

How the data were processed

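RNA of 12 samples was measured on 12 expression arrays. The deposited table holds intensity values on a linear scale, judged from the deposited values themselves, and the software and background step behind it are, in the sources used here, not given. The array means, with 2% trimmed at each end, ran from 1001.52 to 1002.08, and no further scaling was applied. No pair of arrays shared over 0.114% of identical values, and 59 control probe sets were left out.

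Values under 90.91 (the size of the 10th percentile, itself negative) were raised to it. The filter dropped 2622 of 8740 probe sets whose mean log2 value lay below 6.54, the 30th percentile. Names came from the array's annotation, which can be old: 7006 probe sets name 1 gene, 308 several and 1426 none. Positions and promoter windows are RefSeq's (GRCr8).

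The tests used limma 3.58.1 in R 4.3.3 (eBayes with a variance trend): the treatments against untreated on all 12 arrays (9 residual degrees of freedom), butyrate against aspirin with time as a block (4), and slopes over log2 hours (6), with Benjamini-Hochberg adjustment over all 6118 probe sets. The tests were tried on simulated data with normal noise and no floor, which does not cover probe sets with many values at the floor. Precision is limited by the number of arrays.

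The members and lists were chosen with earlier results of these data known. The rule for named genes took all member probe sets, up to 12 called list genes per comparison with untreated by size of change, 13 fixed genes where present, and the 3 genes most correlated with each of the 3 members of largest SD. Alternatives were other floors, an inverse hyperbolic sine, no filter, median centring, quantile normalization, no variance trend, time as a factor or no time block, and each array left out.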

Additional observations from a re-analysis of the deposited data

Results flagged for a closer look

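Within the 5 arrays of a treatment, 1 array stood apart from the other 4 (Dixon's test at the 95% level) in 11 of 47 groups examined, where chance flags about 1 in 20. In most of these the other arrays were at the floor, log2 6.51, so that any array above it stands apart. Gap43 was at 6.80 at 6 h of butyrate and at 6.57 at 2 h of aspirin. Dnm1 was at 6.69 and Nptx1 at 6.70 at 16 h of aspirin. Mog was at 6.89 at 2 h of butyrate and 6.70 at 6 h of aspirin. Rest was at 7.28 at 12 h of butyrate, and Eno3, the muscle enolase, at 7.11 at 2 h of butyrate and 7.34 at 2 h of aspirin. On 2 probe sets the low array was the 2 h butyrate one with the others well above the floor: Syn1 at 8.08, with the others between 8.84 and 9.13, and Cnp at 7.91, with the others between 9.15 and 9.63.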

How the results depend on the processing

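Across the alternatives, 0 named called changes turned direction. With the higher floor (182.2) 322 probe sets passed for butyrate against untreated (716 as reported), 681 for butyrate against aspirin (1540), 318 for the butyrate slope (550) and 53 for the aspirin slope (101). Without the filter these were 358, 778 and 329 for the first 3, and with time as a factor 317 for the first. For aspirin against untreated (9) the count was 0 with median centring, quantile normalization or time as a factor, 2 with the inverse hyperbolic sine and 5 without the variance trend. The aspirin slope gave 242 with the lower floor, 258 with median centring and 253 with the inverse hyperbolic sine. Leaving out each array in turn gave 310 to 1166 for butyrate, 1 to 306 for aspirin (306 without the untreated 24 h array), 241 to 1645 between the treatments, 81 to 541 for the butyrate slope and 6 to 231 for the aspirin slope.

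Among the other neuronal genes, the 5 that rose with butyrate became 0 with the higher floor, 3 without the filter, 2 with time as a factor and 3 to 10 over the left-out arrays. The 0 that fell became 1 with the lower floor or quantile normalization, 5 with median centring and 0 to 4 over the left-out arrays. Those falling with aspirin were 0 to 3. The 14 higher than aspirin became 4 with the higher floor, 8 with median centring, 9 without the filter and 3 to 15 over the left-out arrays. The 1 lower became 0, 9 and 0 under these settings, 2 with the inverse hyperbolic sine and 0 to 1 over the left-out arrays. Rising butyrate slopes were 2 to 11. Rising aspirin slopes (1) were 0 with the higher floor or without the filter, 2 with the inverse hyperbolic sine and 0 to 3 over the left-out arrays, and falling ones (0) were 1 with median centring or quantile normalization and 0 to 1. Fewer arrays or fewer probe sets enter some of these fits; otherwise the cause was not tested. Untreated cells were measured only at 2 and 24 h, and the main fit did not match treated with untreated arrays by hour. With time as a factor, which takes the hour into account, 317 probe sets passed for butyrate against untreated (716 as reported). Butyrate and aspirin arrays were paired by hour, and without that time block 1535 probe sets passed between them and 13 neuronal genes were higher. Values near or under background limit what can be read: with the inverse hyperbolic sine, Mapt X79321_at and Syp were not kept by the filter.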
